A study of Arabidopsis thaliana with 27 samples.

Results

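The transcriptome of Arabidopsis thaliana seedlings of the S364P line was compared with that of wild-type seedlings at 29 °C. The comparison rests on 6 of the 27 messenger RNA libraries of the series, 3 per group, and covers the 21396 of 33039 table entries that reached at least 1 TPM (read abundance scaled for transcript length and library total) in at least 3 of the 27 libraries. The S364P line, called ELF3-16 in the labels, carries EARLY FLOWERING 3 (ELF3) with serine 364 changed to proline, in the Columbia background. Wild type was Columbia. The other mutant, ELF3-101, has a T-DNA insertion in ELF3 and is used below as a second point of reference at the same temperature. Read literally, the labels pair 29 °C with Zeitgeber time 24 h (ZT24, the last hour of the daily cycle), 22 °C with ZT16 and 16 °C with ZT8, so S364P and wild type at 29 °C share both, while differences between temperatures cannot be told apart from differences between times of day. Wild-type clock genes go against these times: the dawn gene CCA1 averaged 270.1 ± 11.8, 224 ± 3.8 and 137 ± 13.6 TPM at 16, 22 and 29 °C (SD, n = 3 each), and the afternoon gene GI 0.083, 0.34 and 1.27 TPM. LHY, another dawn gene, averaged 313, 461 and 272 TPM. Morning genes were thus high and GI low in the groups labelled ZT8 and ZT16 too, so the times below are only those of the labels. Each genotype is 1 line, and the labels say only that the mutants came from natural genetic variation, so the changed residue and any other difference between the lines cannot be told apart. The labels give no seedling age. Nothing says that replicates came from separate plantings, so the p-values speak of the spread among these samples, which may be technical.

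ELF3 holds the evening complex together by joining the small protein ELF4 to the DNA-binding factor LUX, and the complex acts to repress transcription around dusk and in the early night. Textbook targets of the complex include the clock repressors PRR9 and PRR7, the evening gene GIGANTEA and the growth factor PIF4, and the morning factors CCA1 and LHY repress evening genes in turn. Warmth weakens the binding of the complex, which links the clock to elongation growth and flowering.

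The changed residue lies in coding exon 4 of 4 of ELF3 (AT2G25930), on the plus strand of chromosome 2. The reference bases around its codon are shown because the allele defines the line. They were read from the RefSeq genome TAIR10.1 at chr2:11062159-11062212, with the serine codon at bases 11062180 to 11062182 in capitals. The bases that the S364P line carries there were not read from these data.
ELF3 around codon 364: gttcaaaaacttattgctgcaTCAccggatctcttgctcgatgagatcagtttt

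Promoters of some clock genes that differed in either direction are shown, picked because short clock motifs were found in them. Each is the 250 bases before the RefSeq gene start in TAIR10.1, 5′ to 3′ on the strand of the gene. The files name no genome build, and 32373 of 32547 gene lengths in the table equal a RefSeq transcript length of this build. Capitals mark the evening element AAATATCT and the G-box CACGTG on either strand. LUX and FKF1 were higher in S364P, and the last 3 were lower.
LUX, chr3:17182792-17183041, plus strand: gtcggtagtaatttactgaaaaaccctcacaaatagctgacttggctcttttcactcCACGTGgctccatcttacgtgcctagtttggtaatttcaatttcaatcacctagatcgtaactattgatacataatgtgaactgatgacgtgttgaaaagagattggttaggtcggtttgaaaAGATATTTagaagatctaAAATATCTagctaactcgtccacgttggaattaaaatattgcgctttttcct
FKF1, chr1:25508389-25508638, plus strand: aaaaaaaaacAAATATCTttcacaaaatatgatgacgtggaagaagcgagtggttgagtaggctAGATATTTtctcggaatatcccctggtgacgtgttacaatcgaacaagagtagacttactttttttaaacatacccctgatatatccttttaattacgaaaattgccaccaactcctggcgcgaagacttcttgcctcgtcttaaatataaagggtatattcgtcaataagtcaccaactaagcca
CCA1, chr2:19245341-19245590, plus strand: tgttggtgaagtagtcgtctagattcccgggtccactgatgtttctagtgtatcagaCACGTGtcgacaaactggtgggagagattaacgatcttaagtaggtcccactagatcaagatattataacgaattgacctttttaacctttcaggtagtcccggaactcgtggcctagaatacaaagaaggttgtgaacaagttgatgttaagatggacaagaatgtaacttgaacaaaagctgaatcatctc
LHY, chr1:37872-38121, minus strand: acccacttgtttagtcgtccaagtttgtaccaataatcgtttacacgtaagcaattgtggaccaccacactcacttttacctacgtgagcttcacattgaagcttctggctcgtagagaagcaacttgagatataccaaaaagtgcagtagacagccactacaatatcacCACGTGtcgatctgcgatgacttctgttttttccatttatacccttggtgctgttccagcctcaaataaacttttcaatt
RVE1, chr5:5692993-5693242, minus strand: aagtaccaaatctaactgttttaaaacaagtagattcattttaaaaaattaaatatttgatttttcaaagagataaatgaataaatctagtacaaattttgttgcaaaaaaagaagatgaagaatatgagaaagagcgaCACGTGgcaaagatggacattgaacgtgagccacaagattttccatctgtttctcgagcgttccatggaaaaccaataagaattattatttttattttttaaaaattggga

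LUX held 2 evening elements, beginning 70 and 52 bases before the gene start, and a G-box at 193 bases. FKF1 held 2 evening elements at 240 and 186 bases. CCA1, LHY and RVE1 each held 1 G-box, at 193, 80 and 111 bases, and no evening element in this window. G-boxes were also found before genes that were higher, such as BOA at 87, PRR7 at 201 and PIF5 at 165 bases. The windows of GI and PIF4, both higher, held none of the motifs searched. Among 477 windows of genes higher in S364P by at least 1 on the log2 scale, which include LUX and FKF1, 10.06% held an evening element. The share was 3.1% among 419 windows of genes lower by as much, and 4.74% among 21101 windows of all genes tested. A LUX site, GATACG or GATTCG, was in 12.37% of the windows of the higher genes and 11.93% of those of the lower genes, against 12.6% of all. The G-box was in 10.27% and 9.79% of them, against 7.04% of all, and the CCA1-binding site AAAAATCT was in 4.61% and 6.44%, against 6.49%. These are shares of letters in a window, and no binding was measured.

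Each library listed 23616 to 23854 genes above 0. Since TPM sums alike in all libraries, the sequencing depth is unknown and no counting interval is given. Across genes, the log2(TPM + 1) values of libraries of the same group at 29 °C correlated at 0.986 to 0.992 and those of different groups at 0.976 to 0.980. The 10 most abundant genes took 6.69% to 7.19% of all TPM in S364P and 7.85% to 8.52% in wild type. Summed TPM of 19 root markers was 185, 102 and 97.2 in S364P replicates 1 to 3 and 287, 159 and 201 in wild type, so that S364P replicate 1 stood apart from the other two. Seed storage transcripts were raised in S364P replicate 3: CRA1, a storage globulin, had 0.04, 0.22 and 11.2 TPM in S364P and 0.16, 0.1 and 0.04 TPM in wild type. The summed TPM of 12 seed markers ranged over 1.24 to 21.9 in S364P and 0.8 to 0.92 in wild type. None of them passed the expression filter. The part of these markers in the results below was not tested, and counts without single libraries are given beside the groups that moved most.

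In S364P, 5252 genes were higher and 2935 lower than in wild type at an adjusted p below 0.05, which is 24.5% and 13.7% of the 21396 genes tested. Values throughout are TPM per library, and differences are S364P minus wild type on the log2(TPM + 1) scale ± SE, from a limma fit over all 27 libraries with Benjamini-Hochberg adjustment over all genes tested. The pseudocount of 1 makes differences of low genes smaller than their TPM ratios. S364P and wild-type libraries did not overlap for 9535 genes, 44.6% of those tested. Most differences were small: 506 genes were higher and 419 lower by at least 1. The median difference of all genes was 0.07. With median-of-ratios scaling, which sets that median close to 0, 3967 genes were higher and 3749 lower, and quantile normalization gave 4003 and 3731, so the excess of higher genes depends on the scaling. With 38.3% of genes past the test, the count for a gene group has to be read against these shares.

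**Figure D1:**
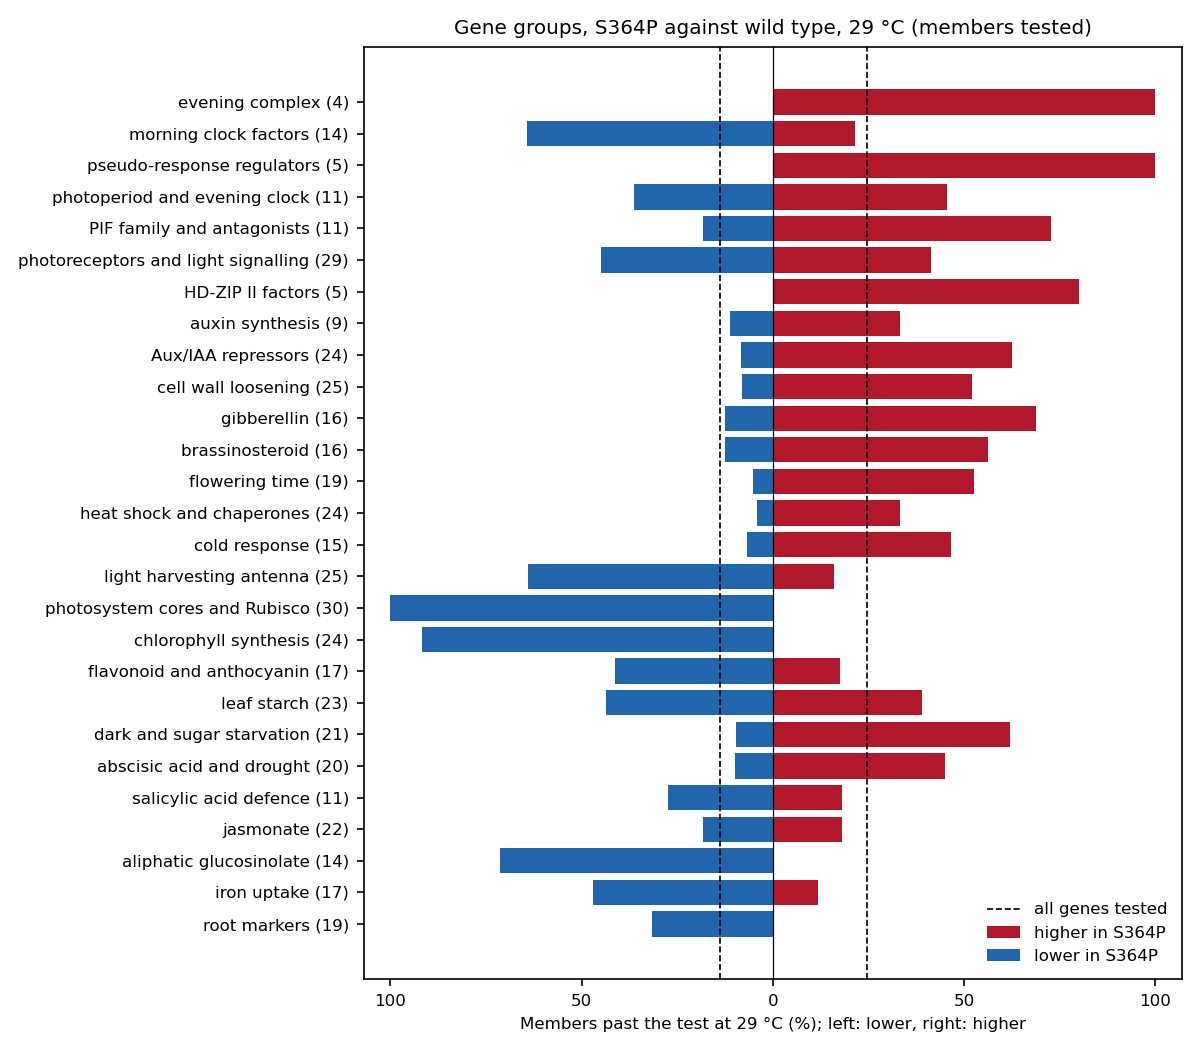
Percentage of the tested members of each gene group that were higher (right, red) or lower (left, blue) in S364P than in wild type at 29 °C, with the number of members tested in brackets and dashed lines at the shares of all genes tested, 24.5% and 13.7%. All 30 photosystem core and Rubisco genes were lower, and all 4 evening complex and all 5 pseudo-response regulator genes were higher.

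The genes of the evening complex itself were higher in S364P, 4 of 4 tested, with a median difference of 1.56. ELF3 had 67.5, 72 and 69.9 TPM in S364P and 41.6, 40.3 and 38.9 TPM in wild type. Every S364P library exceeded every wild-type library, and the difference was 0.78 ± 0.08 (adjusted p = 5.15e-08). LUX, the DNA-binding subunit, had 108, 114 and 122 TPM in S364P and 26.1, 23.3 and 29.1 TPM in wild type, a difference of 2.09 ± 0.09 (adjusted p = 3.83e-14). ELF4 had 44.1, 33.5 and 37 TPM in S364P and 12.6, 10.3 and 12.5 TPM in wild type, a difference of 1.61 ± 0.19 (adjusted p = 7.55e-07). BOA, a close relative of LUX, had 32, 39.6 and 38.7 TPM in S364P and 11.9, 11.8 and 12.9 TPM in wild type, a difference of 1.51 ± 0.10 (adjusted p = 6.37e-11). In none of the 4 did the groups overlap.

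Morning clock factors were mostly lower, 9 of 14 tested against 3 higher, with a median difference of -1.04. CCA1 and LHY, the pair of MYB factors that opens the day in the clock, stood at the bottom. CCA1 had 4.11, 4.84 and 4.18 TPM in S364P and 141, 148 and 122 TPM in wild type, a difference of -4.68 ± 0.10 (adjusted p = 2.10e-19). LHY had 4.54, 3.85 and 3.39 TPM in S364P and 269.9, 298 and 249 TPM in wild type, a difference of -5.80 ± 0.11 (adjusted p = 5.84e-20). Both were below 5 TPM in every S364P library and above 100 TPM in every wild-type library. Their relatives split. RVE1, which promotes auxin synthesis, had 14.6, 19.4 and 22.4 TPM in S364P and 138, 125 and 129 TPM in wild type (-2.75 ± 0.14, adjusted p = 4.66e-13), and RVE8, an activator of evening genes, had 9.03, 8.55 and 8.74 TPM in S364P and 62.1, 68.4 and 59.4 TPM in wild type (-2.72 ± 0.14, adjusted p = 6.11e-13). RVE2 and RVE4 fell by 1.12 and 1.14, with 138, 155 and 164 TPM for RVE4 in S364P and 330.0, 348 and 326 TPM in wild type. RVE3 was low in both groups, at 0.15, 0.13 and 0.31 TPM in S364P and 1.21, 1.61 and 1.21 TPM in wild type, and fell by 0.97. RVE7 rose by 0.55, while RVE5 (0.12, adjusted p = 0.261) and RVE6 (0.04, adjusted p = 0.778) did not pass the test and their libraries overlapped between the groups.

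The LNK coactivators, which work with RVE8, also moved in both directions. LNK2 had 39.7, 48.5 and 34.8 TPM in S364P and 155, 189 and 119.8 TPM in wild type and fell by 1.88 ± 0.16 (adjusted p = 3.94e-09), and LNK3 fell by 0.44 ± 0.09 (adjusted p = 4.22e-04). LNK1 had 17.7, 19.1 and 15.3 TPM in S364P and 9.6, 9.47 and 7.75 TPM in wild type and rose by 0.89 ± 0.10 (adjusted p = 4.10e-07), and LNK4 rose by 0.40 ± 0.08 (adjusted p = 3.67e-04). None of these 4 overlapped between the groups.

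Pseudo-response regulators, which repress CCA1 and LHY in sequence from morning to night, were all higher, 5 of 5, with a median difference of 1.51. PRR7 had 40.8, 45.3 and 36.7 TPM in S364P and 4.93, 5.45 and 4.12 TPM in wild type, a difference of 2.85 ± 0.12 (adjusted p = 4.23e-14). PRR3 had 26.1, 25.8 and 23 TPM in S364P and 4.37, 4.58 and 3.7 TPM in wild type (2.32 ± 0.11, adjusted p = 2.35e-13). TOC1, the last of the sequence, had 75.8, 85.9 and 87.2 TPM in S364P and 29.4, 30.2 and 28.3 TPM in wild type (1.47 ± 0.07, adjusted p = 3.69e-13). PRR5 rose by 1.51 ± 0.15. PRR9 was the lowest of the 5 at 1.76, 1.45 and 1.69 TPM in S364P against 0.66, 0.57 and 0.58 TPM in wild type, and rose by 0.71 ± 0.09. TOC1 and PRR5 each held 1 evening element in the 250 bases before the gene start, at 151 and 187 bases, PRR9 held a GATTCG LUX site at 130 bases, and PRR7 held neither.

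**Figure D2:**
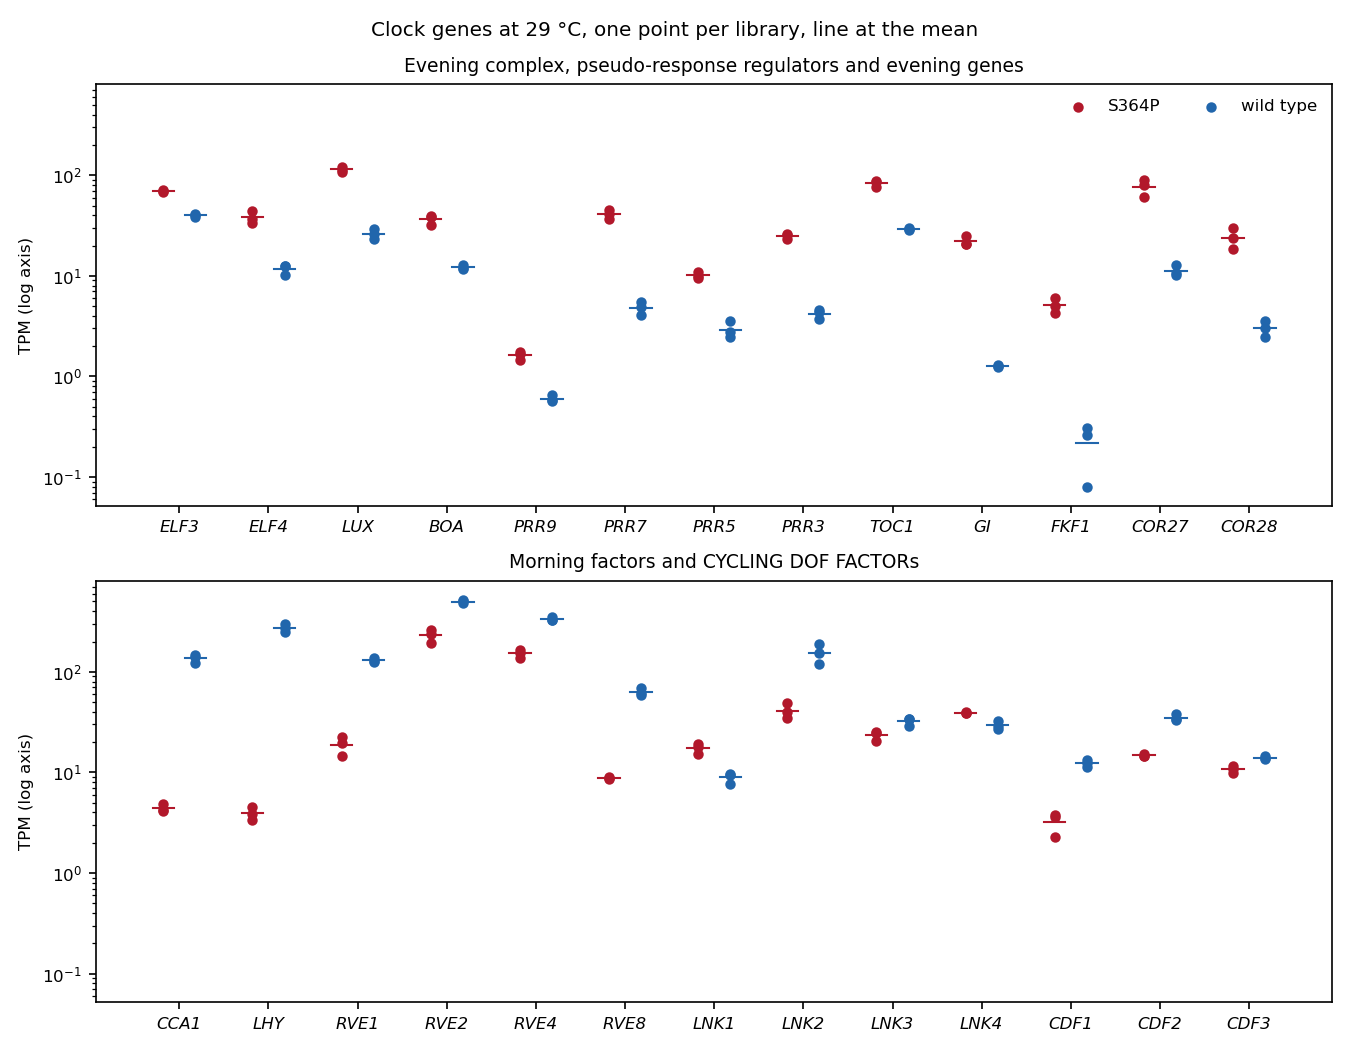
TPM on a log axis for 26 clock genes at 29 °C, 1 point per library (S364P red, left of each pair; wild type blue, right) with a line at the group mean. CCA1 lay at 4.11 to 4.84 TPM in S364P and 122 to 148 TPM in wild type, while GI lay at 20.8 to 24.7 TPM in S364P and 1.25 to 1.29 TPM in wild type.

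Of 11 photoperiod and evening clock genes, 5 were higher and 4 lower, with a median difference of 0.24. GIGANTEA (GI), a scaffold that stabilises light-sensing F-box proteins, had 24.7, 20.8 and 20.9 TPM in S364P and 1.28, 1.29 and 1.25 TPM in wild type, a difference of 3.34 ± 0.12 (adjusted p = 2.39e-15). Its partner FKF1 had 4.26, 5.07 and 5.99 TPM in S364P and 0.26, 0.31 and 0.08 TPM in wild type (2.32 ± 0.12, adjusted p = 7.72e-13). COR27 and COR28, night-expressed regulators of the clock and of cold tolerance, rose by 2.65 ± 0.15 and 2.62 ± 0.16. COR27 had 60.6, 79.6 and 90.5 TPM in S364P and 10.8, 10.2 and 13 TPM in wild type, and COR28 had 18.3, 23.9 and 30 TPM in S364P and 2.46, 3.01 and 3.59 TPM in wild type. The 3 wild-type libraries of each gene lay below all 3 S364P libraries. FKF1 targets the CYCLING DOF FACTORs, repressors of CONSTANS, for degradation. CDF1 had 3.63, 3.75 and 2.26 TPM in S364P and 11.3, 13.3 and 12.5 TPM in wild type and fell by 1.68 ± 0.11 (adjusted p = 5.02e-11), CDF2 fell by 1.18 ± 0.10 (adjusted p = 3.87e-09) and CDF3 by 0.36 ± 0.09 (adjusted p = 0.00292), while CDF5 had 26.1, 29.4 and 31.9 TPM in S364P and 14.1, 13.1 and 13.9 TPM in wild type and rose by 1.03 ± 0.11 (adjusted p = 8.04e-08). CHE differed by -0.19 ± 0.07 (adjusted p = 0.03) with overlapping libraries, and lost its call in a fit of the 6 libraries alone and without any 1 of 3 single libraries. ZTL (-0.06, adjusted p = 0.513) and LKP2 (0.24, adjusted p = 0.163), the other F-box proteins of the family, did not pass.

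PHYTOCHROME INTERACTING FACTORs (PIFs), which drive elongation in the dark and in warmth, and their antagonists were higher in 8 of 11 cases and lower in 2, with a median difference of 1.20. PIF4 had 90.1, 113 and 112 TPM in S364P and 19.3, 17.7 and 19.6 TPM in wild type, a difference of 2.41 ± 0.09 (adjusted p = 3.20e-15). PIF3 had 52.5, 53.9 and 55 TPM in S364P and 23, 22.2 and 23.5 TPM in wild type (1.20 ± 0.09, adjusted p = 6.62e-10), and PIF5 had 82.4, 95.2 and 96.4 TPM in S364P and 67.4, 62.6 and 66.6 TPM in wild type (0.47 ± 0.06, adjusted p = 4.99e-06). PIF6 had 35.6, 39.7 and 30.9 TPM in S364P and 3.96, 5.21 and 3.63 TPM in wild type (2.79 ± 0.15, adjusted p = 2.35e-12). PIF8 moved the other way at 8.67, 10.4 and 6.99 TPM in S364P and 28.5, 31.4 and 28.1 TPM in wild type (-1.66 ± 0.12, adjusted p = 2.41e-10), and PIF1 fell by 0.26 ± 0.08 (adjusted p = 0.0157). PIF7 overlapped between the groups at 4.95, 5.54 and 4.26 TPM in S364P and 4.32, 5.64 and 4.18 TPM in wild type (0.05, adjusted p = 0.807). The HLH proteins that restrain PIF activity rose with them. PIL1 had 68.3, 62.8 and 53.6 TPM in S364P and 6.14, 7.24 and 8.18 TPM in wild type (2.94 ± 0.13, adjusted p = 1.16e-13) and HFR1 had 79.7, 83.6 and 83.4 TPM in S364P and 11.7, 9.47 and 11.9 TPM in wild type (2.80 ± 0.11, adjusted p = 1.24e-14). PAR1 rose by 1.84 ± 0.14 and PAR2 by 0.59 ± 0.17. PAR2 no longer passed without S364P replicate 3, nor PIF1 without S364P replicate 1. In a fit of the 6 libraries alone, 8 members of this group were higher and 1 was lower.

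Light signalling genes split evenly, with 12 of 29 tested members higher and 13 lower and a median difference of 0.02. The far-red photoreceptor gene PHYA had 340.2, 339 and 344 TPM in S364P and 97.7, 79.9 and 91.8 TPM in wild type, a difference of 1.92 ± 0.07 (adjusted p = 3.20e-15). The blue light receptor gene PHOT1 had 225, 214 and 211 TPM in S364P and 102, 81.2 and 96.8 TPM in wild type (1.21 ± 0.11, adjusted p = 7.36e-09). BBX28 and BBX29, which encode B-box proteins, rose by 1.62 and 0.89. The falls were led by HYH, the close homologue of the light-response activator HY5, with 9.54, 6.42 and 5.74 TPM in S364P and 89.3, 101 and 101 TPM in wild type (-3.60 ± 0.18, adjusted p = 7.45e-13). BBX25 had 5.47, 4.85 and 4.43 TPM in S364P and 67.7, 69.1 and 69.8 TPM in wild type (-3.56 ± 0.09, adjusted p = 8.74e-18). SPA3, a partner of the COP1 ubiquitin ligase, fell by 1.71 ± 0.07 (adjusted p = 7.46e-15), and BBX19 fell by 1.51 ± 0.09 (adjusted p = 9.11e-12). HY5, named after its values were seen, had 8.26, 8.15 and 9.81 TPM in S364P and 25.3, 24.8 and 23.2 TPM in wild type (-1.39 ± 0.13, adjusted p = 1.30e-08). CRY1 had 77.1, 80.5 and 83.8 TPM in S364P and 78.5, 77 and 77.3 TPM in wild type, overlapping between the groups (0.05, adjusted p = 0.454).

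Shade-induced transcription factors were mostly higher. Of the 5 HD-ZIP II factors, which are switched on in shade, 4 rose, with a median difference of 0.83. HB2 had 166, 189 and 179.8 TPM in S364P and 31.6, 32 and 36.1 TPM in wild type (2.39 ± 0.12, adjusted p = 3.92e-13), HB4, HAT3 and HAT2 rose by 1.11, 0.83 and 0.75, and HAT1 overlapped (0.08, adjusted p = 0.476). Of 9 auxin synthesis genes tested of 14 listed, 3 rose and 1 fell, with a median of 0.02. YUC8, a flavin monooxygenase and known PIF4 target, had 23.1, 29.9 and 29.9 TPM in S364P and 6.96, 6.08 and 7.04 TPM in wild type (1.89 ± 0.11, adjusted p = 6.88e-12). YUC2 rose by 0.72 and YUC9 by 0.51, while TAA1, which makes the YUC substrate, fell by 0.40 ± 0.13 (adjusted p = 0.0174). TAA1 lost its call in a fit of the 6 libraries alone and YUC9 without S364P replicate 1, and each lost it without other single libraries too.

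Aux/IAA repressors, early transcripts of the auxin response, rose in 15 of 24 cases and fell in 2, with a median of 0.43. Only 1 fell in the 6 libraries alone or with the replicate block. The same held when S364P replicate 3 or wild-type replicate 2 or 3 was left out. IAA29 had 72.7, 81 and 71 TPM in S364P and 15.6, 15.5 and 15.6 TPM in wild type (2.19 ± 0.12, adjusted p = 3.25e-12), and IAA19 had 112, 110.4 and 106 TPM in S364P and 23.6, 21.4 and 27.1 TPM in wild type (2.14 ± 0.18, adjusted p = 2.50e-09). IAA6 and IAA20 rose by 1.85 and 1.74, and IAA12 fell by 0.57 ± 0.07 (adjusted p = 4.08e-07). IAA8 had 136, 140.2 and 130.0 TPM in S364P and 144, 158 and 147 TPM in wild type and fell by 0.14 ± 0.05 (adjusted p = 0.0476), a call that ended in the fit of the 6 libraries alone, with the replicate block and without most single libraries.

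Cell wall loosening genes rose in 13 of 25 cases and fell in 2, with a median of 0.56. Xyloglucan endotransglucosylases, which cut and rejoin wall polymers, led. XTH15 had 1175, 935 and 1191 TPM in S364P and 69.2, 41 and 58.5 TPM in wild type, a difference of 4.29 ± 0.22 (adjusted p = 8.09e-13), which made it one of the 10 largest rises of the comparison. XTH17, XTH18 and XTH19 rose by 2.09, 1.59 and 2.15. They are relatives of similar sequence, and how the authors shared reads between them is not stated here. Among the expansins, EXPA1 fell, with 161, 129 and 122 TPM in S364P and 298, 299 and 329 TPM in wild type (-1.17 ± 0.12, adjusted p = 4.95e-08), and EXPA10 fell by 0.42 ± 0.13 (adjusted p = 0.0138), a call lost without S364P replicate 2.

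Gibberellin genes rose in 11 of 16 tested cases and fell in 2, with a median of 0.47, and these rises covered synthesis, inactivation and repression. GA20OX1, a late step of synthesis, rose by 0.97 ± 0.15 (adjusted p = 2.89e-05), and GA2OX6, which inactivates gibberellin, had 17.2, 15.5 and 16.6 TPM in S364P and 6.23, 5.65 and 6.05 TPM in wild type (1.32 ± 0.13, adjusted p = 2.53e-08). The DELLA repressor gene GAI had 69.5, 74.3 and 77.4 TPM in S364P and 35.5, 34.9 and 37.6 TPM in wild type (1.01 ± 0.06, adjusted p = 3.46e-11) and RGL1 rose by 0.96 ± 0.13 (adjusted p = 4.55e-06), whereas the DELLA gene RGL2 fell by 0.44 ± 0.10 (adjusted p = 9.26e-04). Brassinosteroid genes rose in 9 of 16 cases and fell in 2, with a median of 0.28. The synthesis genes BR6OX2 and CPD rose by 1.35 ± 0.09 and 1.18 ± 0.09, CPD with 407, 509 and 544 TPM in S364P and 217, 196 and 224 TPM in wild type. DWF1 and DWF4 rose by 0.49 and 0.43. BES1, a factor that carries the brassinosteroid signal, fell by 0.60 ± 0.05 (adjusted p = 8.15e-10), and CYP90D1 fell by 0.53 ± 0.15 (adjusted p = 0.00677), a call lost without S364P replicate 2.

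Flowering time genes rose in 10 of 19 tested cases and fell in 1, with a median of 0.33, and both repressors and promoters were among them. The repressor SVP had 61.3, 82 and 93.8 TPM in S364P and 37, 40.4 and 44.7 TPM in wild type (0.92 ± 0.12, adjusted p = 2.04e-06) and the repressor TEM1 had 77, 83.6 and 85.3 TPM in S364P and 41.8, 42.4 and 48.7 TPM in wild type (0.88 ± 0.07, adjusted p = 6.48e-10). CO (CONSTANS), which activates the florigen gene FT in long days, had 6.2, 5.75 and 5.8 TPM in S364P and 3.34, 4 and 3.55 TPM in wild type (0.58 ± 0.09, adjusted p = 1.42e-05), and FD, the partner of the FT protein, rose by 0.68 ± 0.13 (adjusted p = 2.39e-04). The repressor SNZ was the gene that fell, with 2.81, 2.87 and 2.39 TPM in S364P and 8.53, 10.8 and 8.04 TPM in wild type (-1.45 ± 0.09, adjusted p = 3.60e-11). FT itself, named after its values were seen, was listed at 0 to 0.08 TPM in S364P and at 0 in all 3 wild-type libraries. Summed TPM of 10 flower organ markers, of which 8 were below the filter, was 19.2, 16.8 and 14.9 in S364P and 11.8, 10.9 and 12.2 in wild type, and the part of this in the flowering counts was not tested.

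Genes of the photosynthetic apparatus were lower in S364P across photosystems, Rubisco and chlorophyll synthesis. All 30 photosystem core and Rubisco genes tested fell, with a median of -0.80, and 22 of 24 chlorophyll synthesis genes fell and none rose, with a median of -0.89. RBCS1B, a small subunit of Rubisco, had 577, 565 and 638 TPM in S364P and 3911, 4239 and 4297 TPM in wild type (-2.80 ± 0.11, adjusted p = 7.62e-15). The RBCS genes are near-identical copies, so the split of reads between them is uncertain. RCA, Rubisco activase, had 1199, 1248 and 1291 TPM in S364P and 3307, 3412 and 3302 TPM in wild type (-1.42 ± 0.06, adjusted p = 2.36e-14). PSAH2 of photosystem I and PSBO2 of photosystem II fell by 1.38 ± 0.08 (adjusted p = 8.58e-12) and 1.34 ± 0.09 (adjusted p = 5.64e-11). Summed over the 30 genes, S364P libraries had 42860 to 48180 TPM and wild-type libraries 75810 to 80330 TPM.

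In the chlorophyll pathway, GUN4, an activator of magnesium chelatase, had 52.4, 50 and 51.9 TPM in S364P and 199, 214 and 192 TPM in wild type (-1.95 ± 0.05, adjusted p = 8.74e-18). CAO, which makes chlorophyll b, had 33.4, 31.9 and 32.9 TPM in S364P and 112, 122 and 103 TPM in wild type (-1.75 ± 0.06, adjusted p = 1.14e-15), and CHLH, the chelatase subunit that GUN4 binds, had 161, 159 and 152 TPM in S364P and 439, 471 and 429 TPM in wild type (-1.50 ± 0.08, adjusted p = 7.41e-13). GLK2, a factor that switches on these genes, fell by 1.38 ± 0.06 (adjusted p = 1.92e-14). PORB, a light-dependent reductase, had 545, 543 and 580.5 TPM in S364P and 535, 582 and 538 TPM in wild type, overlapping between the groups (0.01, adjusted p = 0.904).

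The light harvesting antenna was less uniform, with 16 of 25 genes lower and 4 higher and a median of -0.47. LHCB2.1 and LHCB2.2, which encode antenna proteins of photosystem II, fell by 2.31 ± 0.06 and 1.55 ± 0.08. LHCB2.1 had 187, 173 and 177 TPM in S364P and 937, 898 and 829 TPM in wild type, and LHCB2.2 had 200.1, 203 and 204 TPM in S364P and 616, 639 and 536 TPM in wild type. LHCA6 and OHP1 fell by 1.49 and 1.31. The antenna genes of photosystem I went the other way in 3 cases. LHCA1 had 2154, 2570.0 and 2842 TPM in S364P and 1363, 1502 and 1381 TPM in wild type (0.82 ± 0.10, adjusted p = 7.35e-07), LHCA4 had 2462, 2978 and 3382 TPM in S364P and 1843, 1992 and 1850.0 TPM in wild type (0.62 ± 0.10, adjusted p = 2.29e-05) and LHCA3 rose by 0.44 ± 0.09 (adjusted p = 4.14e-04). LHCA2 had 1878, 2196 and 2392 TPM in S364P and 2239, 2233 and 2330.0 TPM in wild type, overlapping between the groups (-0.08, adjusted p = 0.447). LHCB3 had 1449, 1653 and 1812 TPM in S364P and 1328, 1545 and 1257 TPM in wild type, overlapping between the groups (0.25 ± 0.10, adjusted p = 0.0478), a call that ended with median-of-ratios scaling and without most single libraries. LHCB1.5 had 9097, 2058 and 5508 TPM in S364P and 3012, 2299 and 3151 TPM in wild type and did not pass (0.75 ± 1.92). It belongs to a set of near-identical LHCB1 copies, and a split of reads that differs between libraries cannot be told apart from a difference in level.

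**Figure D3:**
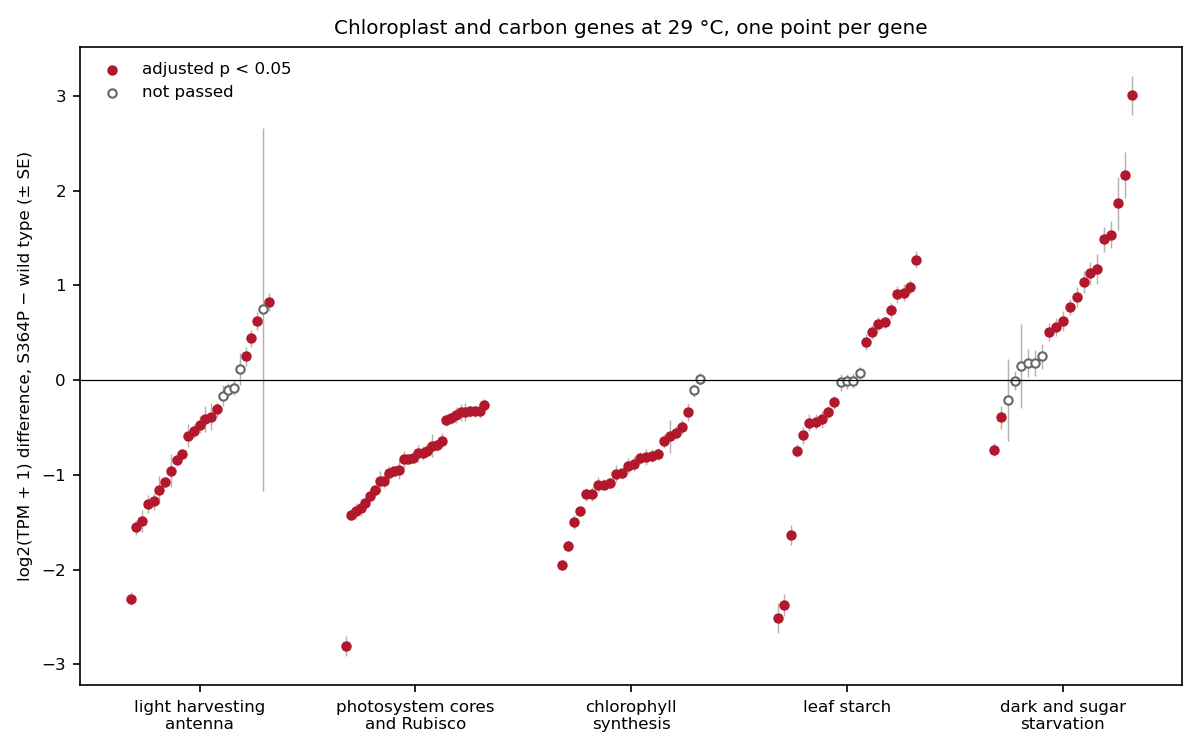
Difference between S364P and wild type at 29 °C on the log2(TPM + 1) scale for every tested gene of 5 groups, ordered within each group, with bars at ± SE (filled, adjusted p below 0.05; open, not passed). The photosystem core and chlorophyll genes lie below 0 apart from PORB at 0.01, the antenna and starch genes spread to both sides, and most dark and sugar starvation genes lie above 0.

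Leaf starch genes split, with 9 of 23 tested higher and 10 lower and a median of -0.01. GBSS1, which makes amylose, had 2.64, 2.53 and 3.71 TPM in S364P and 21.4, 25.4 and 18.1 TPM in wild type (-2.51 ± 0.16, adjusted p = 3.21e-11), and APL1, a subunit of the enzyme at the entry to starch synthesis, fell by 0.75 ± 0.07 (adjusted p = 1.42e-08). BAM3, the main beta-amylase of starch breakdown in leaves, had 30.8, 37 and 41.2 TPM in S364P and 196, 179 and 198 TPM in wild type (-2.37 ± 0.12, adjusted p = 5.85e-13), and BAM9 fell by 1.64 ± 0.10 (adjusted p = 4.06e-11). The debranching enzyme ISA3 had 18.4, 17.3 and 14.8 TPM in S364P and 6.63, 6.69 and 5.8 TPM in wild type (1.27 ± 0.09, adjusted p = 2.39e-10). The phosphorylases PHS1 and PHS2 rose by 0.90 and 0.98, and the starch phosphatase SEX4 rose by 0.92. Transcripts of darkness and sugar starvation were higher in 13 of 21 cases and lower in 2, with a median of 0.62. Only 1 was lower in the 6 libraries alone, or when S364P replicate 2 or 3 or wild-type replicate 2 was left out. DIN1, a transcript of darkened and senescing leaves, had 1856, 2401 and 3293 TPM in S364P and 608, 406 and 656 TPM in wild type (2.17 ± 0.24, adjusted p = 2.63e-07). BCAT2, which starts the breakdown of branched amino acids, had 56.6, 84.8 and 112 TPM in S364P and 11.6, 7.08 and 9.65 TPM in wild type (3.0 ± 0.20, adjusted p = 1.00e-10). DIN6, an asparagine synthetase, had 129.8, 196 and 289.7 TPM in S364P and 72.5, 39.7 and 51.1 TPM in wild type (1.86 ± 0.28, adjusted p = 1.44e-05), and MCCA of leucine breakdown rose by 1.53 ± 0.14 (adjusted p = 1.37e-08). BZIP63, a factor of the starvation response, fell by 0.74 ± 0.07 (adjusted p = 1.81e-08).

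Heat shock and chaperone genes rose in 8 of 24 tested cases and fell in 1, with a median of 0.23. HSFA1E, a heat shock factor, had 6.7, 6.9 and 7.19 TPM in S364P and 3.29, 3.44 and 2.74 TPM in wild type (0.94 ± 0.08, adjusted p = 9.14e-09), HSFA3 rose by 0.69 ± 0.12 (adjusted p = 1.40e-04), and CLPB3, a plastid chaperone, fell by 0.57 ± 0.08 (adjusted p = 6.81e-06). HSP70 had 83.5, 70 and 53.7 TPM in S364P and 59, 47.3 and 51.1 TPM in wild type, overlapping between the groups (0.37, adjusted p = 0.0718). Cold response genes rose in 7 of 15 cases and fell in 1, with a median of 0.53. No member fell when S364P replicate 2 or 3 or wild-type replicate 1 or 3 was left out, or at a pseudocount of 5. COR414-TM1, a cold-induced membrane protein gene, had 214, 308 and 361 TPM in S364P and 9.19, 10.7 and 10.1 TPM in wild type, a difference of 4.72 ± 0.19 (adjusted p = 2.04e-14). KIN2, ERD10 and COR47 rose by 1.97, 1.22 and 0.95, KIN2 with 110.4, 145 and 165 TPM in S364P and 33, 37.8 and 32.7 TPM in wild type. The factor CBF2, which switches such genes on in the cold, had 0.7, 0.55 and 0.42 TPM in S364P and 1.2, 0.91 and 1.36 TPM in wild type (-0.47 ± 0.16, adjusted p = 0.0212), a call lost at a pseudocount of 5 and without most single libraries.

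Among 20 genes of abscisic acid and drought, 9 were higher and 2 lower, with a median of 0.35. No member was lower when S364P replicate 3 or wild-type replicate 1 was left out. In the 6 libraries alone, or without wild-type replicate 2 or 3, 1 was lower. NCED3, the limiting step of abscisic acid synthesis, rose by 1.06 ± 0.13 (adjusted p = 6.27e-07), and ABI1, a phosphatase that brakes the response, had 52.9, 56.6 and 59 TPM in S364P and 23.3, 22.8 and 22.4 TPM in wild type (1.26 ± 0.07, adjusted p = 9.51e-12). RD20 rose by 1.11 and CYP707A2, which degrades the hormone, by 1.24. Flavonoid genes fell in 7 of 17 cases and rose in 3, with a median of -0.29. CHS, the first enzyme of the pathway, had 19.8, 17.9 and 15.5 TPM in S364P and 37.1, 45.9 and 38 TPM in wild type (-1.14 ± 0.14, adjusted p = 1.11e-06), and F3H, FLS1 and DFR fell by 1.25, 1.42 and 1.02. Their repressor MYBL2 rose by 0.88 ± 0.13 (adjusted p = 1.42e-05). The activator MYB111 rose too, by 0.63 ± 0.11 (adjusted p = 1.07e-04), and CHI overlapped between the groups (-0.12, adjusted p = 0.48).

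Salicylic acid genes rose in 2 of 11 tested cases and fell in 3, with a median of -0.04. PAD4, a regulator of that response, had 3.2, 2.26 and 2.4 TPM in S364P and 6.51, 6.43 and 8.07 TPM in wild type (-1.15 ± 0.10, adjusted p = 1.07e-08). Jasmonate genes rose in 4 of 22 cases and fell in 4, with a median of -0.02. That is 18.2% in each direction, against 24.5% higher and 13.7% lower among all genes tested. The exception in size was ST2A, which sulphates a hydroxylated jasmonate, with 359, 377 and 360.5 TPM in S364P and 31.9, 24.4 and 34.1 TPM in wild type (3.57 ± 0.16, adjusted p = 6.04e-14), while the repressor gene JAZ9 fell by 1.21 ± 0.14 (adjusted p = 5.85e-07). Aliphatic glucosinolate genes fell in 10 of 14 cases, with a median of -0.41, and the count was 4 in a fit of the 6 libraries alone, 6 without S364P replicate 2 and 5 without S364P replicate 3. Their activator MYB29 had 0.4, 0.63 and 0.25 TPM in S364P and 2.5, 2.73 and 2.14 TPM in wild type (-1.28 ± 0.11, adjusted p = 7.98e-09).

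Iron uptake genes fell in 8 of 17 cases and rose in 2, with a median of -0.54, and root markers fell in 6 of 19 cases with a median of -0.50. IRT1, the root iron transporter, is in both lists and had 10.7, 1.83 and 2.29 TPM in S364P and 66.1, 22.2 and 32.2 TPM in wild type (-2.96 ± 0.58, adjusted p = 3.40e-04). The reductase gene FRO2 had 2.1, 0.39 and 0.53 TPM in S364P and 11.3, 3.41 and 5.09 TPM in wild type (-1.88 ± 0.48, adjusted p = 0.00379). In both genes the library with the highest summed root markers in each group, replicate 1, was the highest, though IRT1 is itself part of that sum. FER1, an iron-storage ferritin that leaves express, had 638, 873 and 744 TPM in S364P and 213, 221 and 252 TPM in wild type (1.71 ± 0.18, adjusted p = 1.40e-07). Of the root markers, PRX44, PHT1-1 and CASP1 overlapped between the groups and lost their calls in the fit of the 6 libraries alone and without several single libraries. The count of lower root markers was 11 without S364P replicate 1, 3 without S364P replicate 2, 2 without S364P replicate 3 and 2 without wild-type replicate 1. The count of lower iron uptake genes was 5 without S364P replicate 2 and 4 without wild-type replicate 1, and that of higher ones was 1 without S364P replicate 1. The iron uptake median was -0.21 without S364P replicate 2, -0.25 without wild-type replicate 1 and -0.23 at a pseudocount of 5. The root marker median was -0.32 without wild-type replicate 1 and -0.18 at a pseudocount of 5. In whole seedlings, fewer root cells and less RNA of these genes per root cell cannot be told apart.

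Annotation terms with many members gave the broader picture. Of 268 tested genes annotated to vesicle-mediated transport, 123 rose and 6 fell, with a median of 0.22. The number that rose was 83 in the 6 libraries alone, 97 with median-of-ratios scaling and 89 without S364P replicate 1. Autophagy genes rose in 31 of 54 cases and none fell, with a median of 0.27, and in the 6 libraries alone 20 rose. Protein ubiquitination genes rose in 200 of 565 cases and fell in 38. Photosynthesis genes fell in 97 of 163 cases and rose in 17. Translation genes fell in 100 of 543 cases and rose in 57, and rRNA processing genes fell in 39 of 179 cases and rose in 12, with medians of -0.02 and -0.09. With median-of-ratios scaling translation genes fell in 134 cases and rose in 29, and rRNA processing genes fell in 59 and rose in 7. Without wild-type replicate 3, the genes that rose numbered 36 for translation and 5 for rRNA processing, and 6 rRNA processing genes rose without S364P replicate 2. In the 6 libraries alone 37 translation genes rose, 25 rRNA processing genes fell and 6 rose, 24 ubiquitination genes fell and 11 photosynthesis genes rose. Quantile normalization gave 63 lower rRNA processing genes. Genes annotated to the response to heat rose in 51 of 184 cases and fell in 26, close to the shares of all genes tested. Cell wall organization genes rose in 85 of 338 cases and fell in 44, also close to those shares, with a median of 0.07. In the 6 libraries alone 23 of them fell, and without S364P replicate 1 64 fell. For the response to cold, 94 of 339 genes rose and 76 fell, with a median of 0.06.

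The largest rises outside these lists included transcripts that were at or near 0 in wild type. Assembled locus MSTRG.15205, annotated with domains of a copia-type retrotransposon, had 149, 139.9 and 129 TPM in S364P and was listed at 0 in all 3 wild-type libraries. MSTRG.19959, with reverse transcriptase domains, had 71.3, 79.3 and 54.1 TPM in S364P and was listed at 0 in all 3 wild-type libraries. MSTRG.2987, with gag domains of copia type, had 43.2, 33.9 and 34.9 TPM in S364P and 0, 0 and 0.03 TPM in wild type. These are loci for which the table gives no gene name. QQS (AT3G30720), an orphan gene that alters the partition of carbon to starch and protein, had 247, 271 and 207 TPM in S364P and 1.97, 2.91 and 2.54 TPM in wild type (6.13 ± 0.34, adjusted p = 3.31e-12). The noncoding RNA gene AT2G01422 had 41.3, 67.2 and 60.7 TPM in S364P and 0, 0.08 and 0 TPM in wild type, AT5G45095, which has no described function, had 47.3, 49.8 and 38.7 TPM in S364P and 0.64, 0.61 and 0.47 TPM in wild type (4.87 ± 0.13, adjusted p = 8.74e-18), and MSTRG.14141 had 21.7, 23.2 and 21.4 TPM in S364P and 0, 0.34 and 0.37 TPM in wild type (4.24 ± 0.17, adjusted p = 2.41e-14). AT4G31441 had 13, 72.6 and 11.7 TPM in S364P and was listed at 0 in wild type, but its annotated length is 123 bases, for which TPM is unstable.

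Besides LHY, CCA1, HYH, BBX25 and IRT1, the 10 largest falls held AT2G15020, of unknown function, listed at 0 in all 3 S364P libraries and with 11.4, 12.2 and 12 TPM in wild type. AT3G01060, annotated to circadian rhythm, had 3.01, 3.68 and 2.65 TPM in S364P and 34.2, 39 and 33 TPM in wild type (-3.15 ± 0.10, adjusted p = 1.92e-16). FADA, a plastid fatty acid desaturase gene, had 2.25, 2.18 and 3.08 TPM in S364P and 25, 27.9 and 25.4 TPM in wild type (-2.96 ± 0.08, adjusted p = 5.01e-17). The remaining pair, of 105 and 116 bases, are short and were listed at 0 in S364P. In wild type AT3G45851 had 51.6, 161 and 19.5 TPM and the MIR398b locus had 45.3, 51 and 17.2 TPM. AT3G45851 lost its call without wild-type replicate 2.

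The insertion line at 29 °C shows how S364P seedlings compared with seedlings with a disrupted ELF3 gene. Between these lines 141 genes were higher and 73 lower in S364P, 0.659% and 0.341% of the 21396 tested, against 38.3% called between S364P and wild type. The count rests on S364P replicate 1: without it 516 genes were higher and 888 lower, and without any other library 69 to 147 were higher and 15 to 47 lower. In a fit of the 6 libraries alone, 50 were higher and 3 lower. Few calls do not show that the lines act alike.

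ELF3 was itself higher in S364P, with 67.5, 72 and 69.9 TPM, than in the insertion line, with 41.9, 38.1 and 39 TPM (difference 0.80 ± 0.08, adjusted p = 5.40e-07). The wild type had 41.6, 40.3 and 38.9 TPM, so the insertion line and wild type overlapped. PRR9 had 1.76, 1.45 and 1.69 TPM in S364P, 4.94, 4.41 and 5.19 TPM in the insertion line and 0.66, 0.57 and 0.58 TPM in wild type, which placed S364P between the other lines (-1.15 ± 0.09 against the insertion line, adjusted p = 1.04e-08). LNK3 was lower in S364P than in both, with 25.1, 20.4 and 24.6 TPM in S364P, 36.8, 38.4 and 35.6 TPM in the insertion line and 34, 28.7 and 33.6 TPM in wild type (-0.64 ± 0.09 against the insertion line, adjusted p = 1.57e-04). The LNK3 call ended in the fit of the 6 libraries alone. LNK4 and CCA1 differed by -0.40 and -0.46 (adjusted p = 0.0146 and 0.0225) and also lost their calls there, with median-of-ratios scaling and without several single libraries. These 5 were the called genes among 45 core clock, photoperiod and PIF genes. LUX (0.04, adjusted p = 0.852), PIF4 (0.11, adjusted p = 0.568), PRR7 (0.01, adjusted p = 0.971) and LHY (-0.11, adjusted p = 0.67) did not pass.

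**Figure D4:**
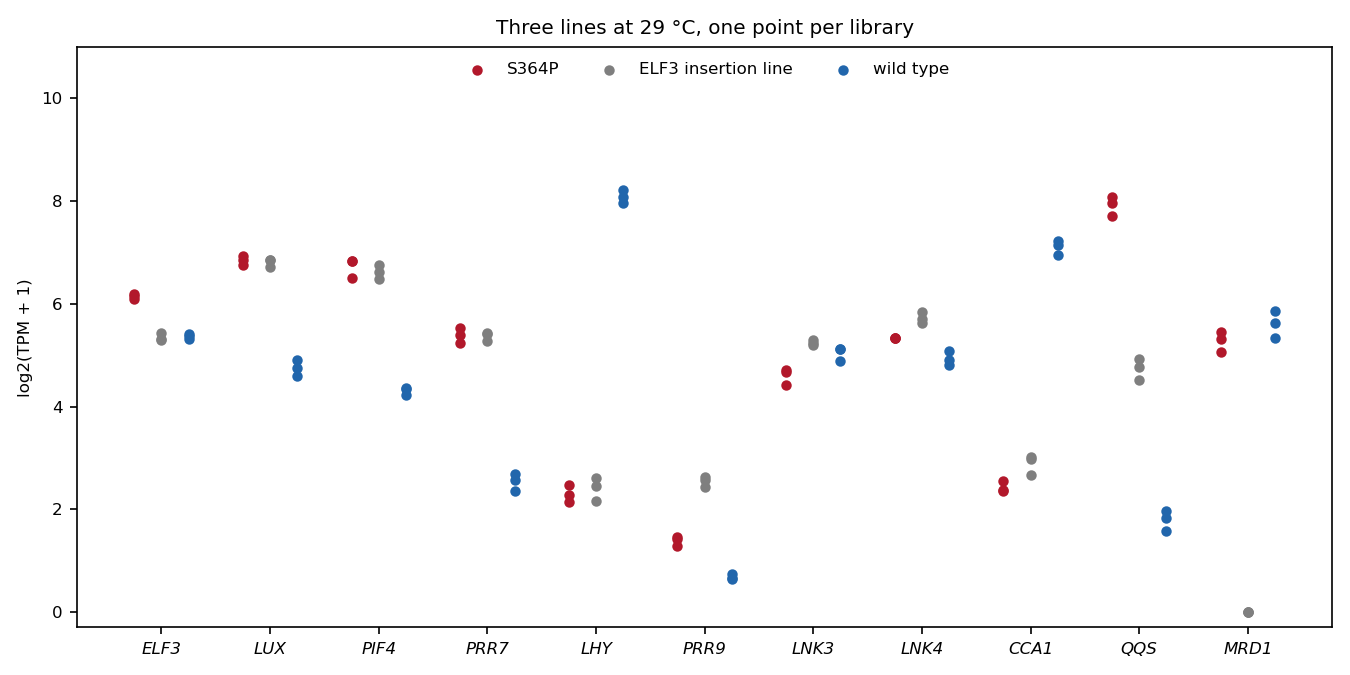
Expression at 29 °C as log2(TPM + 1), 1 point per library, in S364P (red), the ELF3 insertion line (grey) and wild type (blue). LUX, PIF4, PRR7 and LHY overlap between S364P and the insertion line and lie away from wild type, ELF3 is higher in S364P than in both others, and PRR9 in S364P lies between the insertion line and wild type.

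The largest differences between S364P and the insertion line were of other kinds. MSTRG.15205 and AT2G01422 were at 0 to 0.09 TPM in the insertion line, as in wild type. QQS had 247, 271 and 207 TPM in S364P and 29.3, 26.1 and 22 TPM in the insertion line (3.18 ± 0.34, adjusted p = 2.27e-06). MRD1 was the reverse case, with 42.6, 38.6 and 32.5 TPM in S364P, 0 in all 3 libraries of the insertion line and 39.4, 56.8 and 48.6 TPM in wild type. Genes lower in S364P included AT2G37130, a peroxidase gene, with 141, 80.1 and 99.9 TPM in S364P and 221, 259 and 258 TPM in the insertion line (-1.23 ± 0.19, adjusted p = 5.75e-04), and THI2.2, a thionin gene, with 4.86, 4.42 and 5.33 TPM in S364P and 8.17, 14.9 and 10.8 TPM in the insertion line (-1.03 ± 0.16, adjusted p = 8.90e-04). Both lost their calls in the fit of the 6 libraries alone. Summed TPM of the 19 root markers was 185, 102 and 97.2 in S364P and 169, 184 and 214 in the insertion line, with a median difference of -0.50 and 1 marker called lower, and AT2G37130 was likewise highest in S364P replicate 1. The part of the root markers in these lower genes was not tested. MSTRG.15205 and QQS were present in S364P at all temperatures, with means of 134 and 147.6 TPM at 16 °C and 163.8 and 223.6 TPM at 22 °C.

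The comparison with 22 °C asks which S364P effects differed in the 29 °C, ZT24 group from the 22 °C, ZT16 group. The effect was more positive at 29 °C for 2246 genes and more negative for 1485, 10.5% and 6.94% of the genes tested (interaction term, limma). With median-of-ratios scaling the counts were 1616 and 1863, and with quantile normalization 1565 and 2177, so which direction held more genes depends on the scaling. At 22 °C itself 17.3% of genes were higher and 19.9% lower in S364P than in wild type. Among the 45 core genes 30 had a called difference, 7 more positive and 23 more negative. CCA1 had an effect of -4.68 at 29 °C, against -1.24 at 22 °C, where it was at 101, 93.4 and 88.9 TPM in S364P and 222, 221 and 228 TPM in wild type (difference of effects -3.45 ± 0.14, adjusted p = 8.32e-13). LHY had an effect of -5.80 at 29 °C and -2.39 at 22 °C (-3.40 ± 0.16, adjusted p = 5.41e-12). LNK2 differed by -1.88 at 29 °C and 0.28 at 22 °C (-2.15 ± 0.23, adjusted p = 8.89e-07). In the other direction PIF6 rose by 2.79 at 29 °C against 0.49 at 22 °C (2.30 ± 0.21, adjusted p = 1.81e-07), and FKF1 by 2.32 against 0.84 (1.48 ± 0.17, adjusted p = 2.12e-06). PIF4 and PRR7 rose at both, by 2.41 and 2.85 at 29 °C and by 3.76 and 4.12 at 22 °C, with differences of effects of -1.35 and -1.27.

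**Figure D5:**
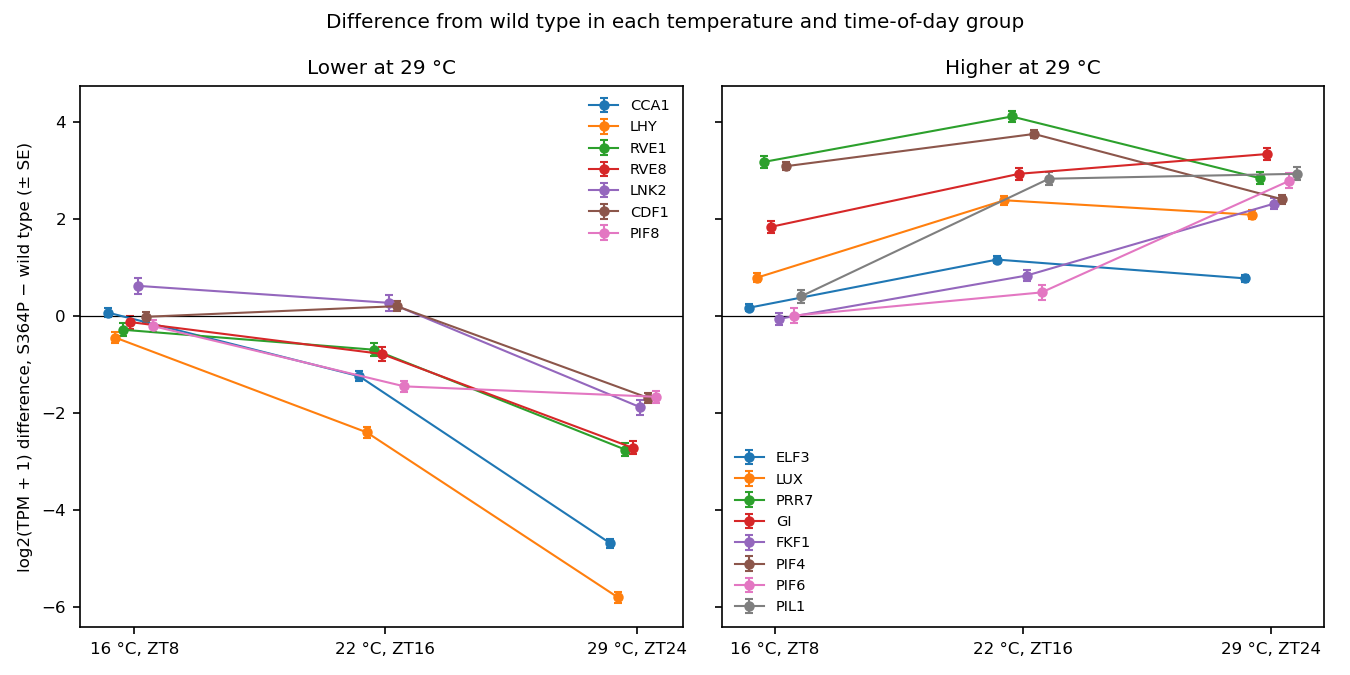
Difference between S364P and wild type on the log2(TPM + 1) scale (± SE) in the 16 °C, 22 °C and 29 °C groups, with the Zeitgeber time the labels pair with each, for genes lower (left) and higher (right) in S364P at 29 °C. CCA1 and LHY lie at 0.07 and -0.44 at 16 °C, -1.24 and -2.39 at 22 °C and -4.68 and -5.80 at 29 °C, and FKF1 lies at -0.05, 0.84 and 2.32.

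Outside the clock, 29 of 30 photosystem core and Rubisco genes, 22 of 24 chlorophyll synthesis genes and 18 of 25 antenna genes had a more negative effect at 29 °C. RBCS1B differed by -2.80 at 29 °C and -0.80 at 22 °C (-2.00 ± 0.15, adjusted p = 1.39e-08), and LHCB2.1 by -2.31 and -0.12 (-2.18 ± 0.09, adjusted p = 1.00e-12). Flavonoid genes went the other way, 11 of 17 with a more positive effect and none with a more negative one. CHS differed by -1.14 at 29 °C and -2.51 at 22 °C (1.37 ± 0.20, adjusted p = 5.42e-05). XTH15 had an effect of 4.29 at 29 °C, against 1.13 at 22 °C, where it was at 34.8, 65.7 and 42.5 TPM in S364P and 25.3, 15.7 and 21.7 TPM in wild type (3.16 ± 0.31, adjusted p = 3.48e-07). AT2G47780, a rubber elongation factor family gene, had 26.7, 35.9 and 37.4 TPM in S364P and 0.79, 0.93 and 1.14 TPM in wild type at 29 °C, against 1.12, 1.56 and 0.93 TPM in S364P and 0.61, 1.28 and 0.42 TPM in wild type at 22 °C (3.79 ± 0.34, adjusted p = 1.39e-07). IAA29 had the opposite pattern, with an effect of 2.19 at 29 °C and 4.46 at 22 °C (-2.27 ± 0.17, adjusted p = 1.25e-08). At 22 °C IAA29 had 75.3, 64.8 and 69.8 TPM in S364P and 2.44, 2.01 and 2.22 TPM in wild type.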

How the data were processed

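Messenger RNA of whole seedlings was sequenced on an Illumina platform, per the labels' protocols. The authors deposited 1 table of TPM per gene and library, with lengths and annotations, per the file headers. The aligner, the counting tool, its strand setting and its treatment of multiply mapped reads are not given in the sources used for this account. The table holds 0 per-sample columns of other series. Genes needed 1 TPM or more in at least 3 of the 27 libraries, and values were analysed as log2(TPM + 1). A mean for each of 9 groups was fitted with limma 3.58.1 (trend, R 4.3.3), and p-values were adjusted by Benjamini-Hochberg over 21396 genes. The fit was also run on simulated data with independent noise and few changed genes. Such data cannot speak to scaling or to noise shared between libraries. Alternatives changed the pseudocount, filter, scaling, fit and libraries. Named genes were the core clock, photoperiod and PIF genes, those with the largest rises and falls in each list (and the largest not passed), and the 10 largest rises and falls of all genes, with HY5 and FT added after their values were seen. The members and lists were chosen with earlier results of these data known. One listed glucosinolate gene was not analysed here.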

Additional observations from a re-analysis of the deposited data

Results flagged for a closer look

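The S364P effect at 29 °C (ZT24) differed from that at 22 °C (ZT16) by the interaction term of the limma fit (adjusted p below 0.05) for 2246 genes in the positive and 1485 in the negative direction. Values are the effect at 29 °C minus the effect at 22 °C on the log2(TPM + 1) scale. Temperature and time of day cannot be told apart in them, and wild-type clock genes go against the labelled times.

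Among morning factors the difference was -3.45 for CCA1, -3.40 for LHY, -2.06 for RVE1, -1.02 for RVE2, 1.34 for RVE3, -1.28 for RVE4, -1.13 for RVE7 and -1.94 for RVE8. RVE3 was lower in S364P at both temperatures, with effects of -0.97 at 29 °C and -2.31 at 22 °C. Its S364P means were 0.20 and 0.32 TPM there, and its wild-type means 1.34 and 5.58 TPM. The LNK genes differed by -0.90 (LNK1), -2.15 (LNK2), -1.12 (LNK3) and -0.42 (LNK4). In the evening complex ELF3 differed by -0.39 and ELF4 by 0.93. Of the pseudo-response regulators, PRR9 differed by -1.33, PRR7 by -1.27, PRR3 by -0.74 and TOC1 by 0.33. Evening and photoperiod genes differed by 1.48 (FKF1), -1.89 (CDF1), -0.83 (CDF2), -1.13 (CDF3), -0.77 (CDF5), 0.83 (COR28) and -0.94 (CHE). In the PIF group the values were 0.44 for PIF3, -1.35 for PIF4, 2.30 for PIF6, -1.06 for PAR1 and -0.91 for PAR2.

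Genes outside the core lists were named for the size of their change. Among them the positive differences were 5.52 for AT4G31441, 4.13 for the MIR157b locus (ath-MIR157b), 3.79 for AT2G47780, 3.76 for AT5G46085, 3.36 for AT1G02470, 3.16 for XTH15, 2.99 for UGT74E2 and 2.85 for AT2G04050. The negative ones were -9.60 for AT3G45851, -5.37 for the MIR398b locus (ath-MIR398b), -3.44 for AT1G78995, -2.92 for CIPK20, -2.27 for IAA29 and -2.24 for AT4G38820. AT4G31441, AT3G45851 and the microRNA loci are short, and their TPM is unstable. UGT74E2, AT2G04050 and CIPK20 overlapped between S364P and wild type at 29 °C. Their effects were 0.46, 0.23 and -0.67 at 29 °C, and -2.53, -2.62 and 2.25 at 22 °C.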

How the results depend on the processing

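Against wild type, 153 of 186 named genes kept their direction and call under every alternative tried on single genes. The same held for 31 of 44 in the 29 °C minus 22 °C test and 10 of 22 against the insertion line. The changed filters and the minimum difference were tried on the counts only and are not among these alternatives. The single-gene alternatives for the last pair of tests were chosen after seeing the data. The counts against wild type ranged over 4113 to 5175 higher and 2376 to 3404 lower when 1 library was left out. For the 29 °C minus 22 °C test they ranged over 1541 to 2582 and 1262 to 1457, and against the insertion line over 69 to 516 and 15 to 888, the highest without S364P replicate 1. A minimum difference of 1 on the log2 scale left 506 and 419 genes against wild type, 326 and 156 for 29 °C minus 22 °C, and 56 and 15 against the insertion line. The 6 libraries alone gave 50 and 3 against the insertion line. The cause was not tested. Same-numbered libraries correlated at 0.197, 0.263 and 0.0469 in their deviations from the group means, and unlike-numbered ones at -0.238 to 0.0647. The main fit did not pair the samples by number, and whether the numbers mark shared handling was not tested. With the replicate number as a block, 5449 genes were higher and 3027 lower against wild type, 2477 and 1592 for 29 °C minus 22 °C, and 180 and 84 against the insertion line.

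The differences that changed sign, or for FT fell to 0, all belonged to genes that did not pass the test. With median-of-ratios scaling they were RVE6 (-0.0252), PIF7 (-0.0060), CRY1 (-0.0201) and PORB (-0.0607), and with quantile normalization RVE6 (-0.0383), CRY1 (-0.0093) and HAT1 (-0.0094). Leaving out 1 library gave -0.0232 to 0.1373 for RVE6, -0.1186 to 0.0012 for ZTL, -0.0212 to 0.1669 for PIF7, 0.0000 to 0.0555 for FT, -0.1587 to 0.0158 for LHCA2 and -0.0196 to 0.050 for PORB. TPM keeps no depth, so the counting error of low genes is unknown.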
